A study of Rattus norvegicus with 3 samples.

Results

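The comparison described here set fetal rat cardiomyocytes kept in skeletal myoblast-conditioned medium against the same kind of cells kept in cardiac fibroblast-conditioned medium. For every gene, the deposited log2 value of the fibroblast medium culture was subtracted from that of the myoblast medium culture, so a positive difference means a higher value in myoblast medium and 1 stands for 2-fold. All genes were taken, 14218 of the 14218 that had at least 1 probe set with a single gene symbol, and 2 of the 3 arrays of the study entered the difference. The cells came from fetuses of Wistar rats, an outbred laboratory strain, and were freed by enzyme digestion, plated for 48 hours and then treated for 24 hours. The culture not used in the difference received fresh culture medium, and its value is given beside the others where a gene is described. No genotype, transgene or other agent is named in the labels, and the sources used here do not say how many animals were pooled for a culture or how pure the cells were. Each medium was represented by 1 Affymetrix 3' expression array, so there is no replicate, standard error or p-value, and every statement below describes these arrays rather than the media.

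Conditioned medium is culture fluid in which donor cells have grown, so it carries what they secreted and lacks what they used up. Skeletal myoblasts, the proliferating precursors of muscle fibres, and cardiac fibroblasts, the main producers of matrix in the heart, secrete different mixtures of growth factors, cytokines and proteases, and both have been studied as sources of factors that act on heart muscle cells. A primary culture from a fetal heart usually also holds some fibroblasts, endothelial cells, blood cells and macrophages, and their transcripts reach the array with those of the cardiomyocytes. For every gene described here, more or fewer cells of a type and more or less RNA per cell cannot be told apart.

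The deposited values are centred on each probe set's median over the 3 arrays, so the array in the middle stands at 0 and absolute levels are not known. For that reason the labelled cell type could not be checked against the level of cardiomyocyte markers, only their differences could be read. Blanks were read as 0, so a gene at 0 on more than 1 array does not show measured equal values. Over all genes the median difference was 0.00 and the SD was 0.557, with values from -6.73 to 4.28. At least 2-fold higher in myoblast medium were 302 genes (2.12% of all genes), and 560 genes (3.94%) were at least 2-fold lower. Lists below with few or none of their genes past 2-fold lie near these shares, and such counts are not read as results. Larger differences lay mostly on the lower side, where 58 genes passed 8-fold, against 6 on the higher side. Past 16-fold were 17 genes on the lower side and 1 on the higher side. Among genes just inside the limit were Mccc1 at 1.001 and Net1 at -1.001, and just outside it Gckr at 0.999 and Iqgap1 at -0.999.

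Transcripts added during labelling and hybridisation give the only technical yardstick. Their 42 probe sets had differences from -0.48 to 1.02 with an SD of 0.48, and 1 of them passed 2-fold. The 24 probe sets for poly-A controls were all higher in the myoblast medium array (median 0.58), and the 18 for hybridisation controls were all lower (median -0.28). Whether equal amounts were added is not known. Of the genes past 2-fold, 35% were higher in myoblast medium. That share was 4.94% when the poly-A controls were set to 0, which moves the median of all genes to -0.58, and 63.6% when the hybridisation controls were set to 0, which moves it to 0.28. With all 42 controls it was 19.3%, at a median of -0.21. A gene or list median between -0.28 and 0.58 therefore changes side with the choice of scaling. Of 76 gene lists, 44 had a median that did so, 25 were lower in myoblast medium under each of these scalings, and 7 were higher.

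**Figure D1:**
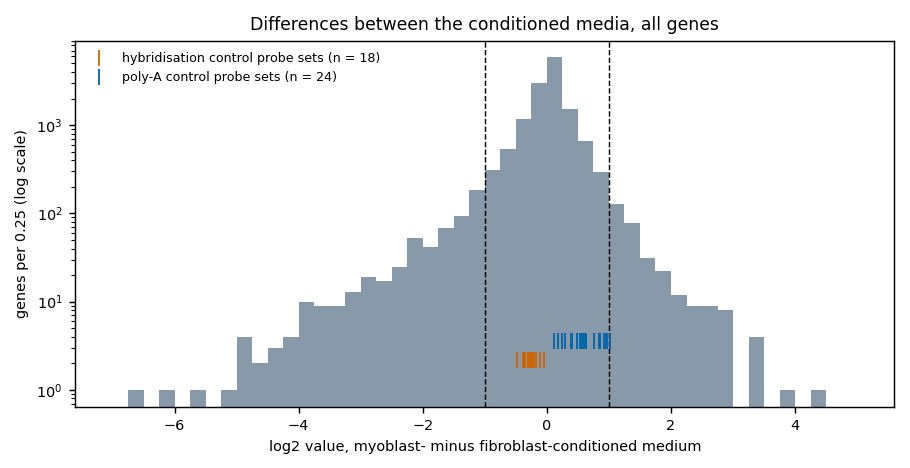
Histogram of the log2 difference (myoblast- minus fibroblast-conditioned medium, horizontal axis) for 14218 genes, with the number of genes per bin on a log axis. Dashed lines mark 2-fold, and ticks near the bottom show the differences of 18 hybridisation and 24 poly-A control probe sets, at heights chosen only to keep them apart; the left tail, down to -6.73, reaches farther than the right one, up to 4.28.

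The gene with the widest difference was Grem1, whose secreted product blocks bone morphogenetic proteins. Its values were -0.75 in fresh medium, 0 in myoblast medium and 6.73 in fibroblast medium, which makes it 106-fold lower in myoblast than in fibroblast medium. The fibroblast medium array stood far above the other two, which lay close to each other. The macrophage receptor gene Adgre1 had values of 0, -0.80 and 5.41 in the same order of fresh, myoblast and fibroblast medium, and a difference of -6.22. The lysozyme gene Lyz2 stood at 0, -0.88 and 4.85, and differed by -5.73. Il1b, the gene of the inflammatory cytokine interleukin-1 beta, stood at 0, -0.13 and 4.94, a difference of -5.07. In each of these genes the fibroblast medium array was the high one. That array was the highest of the 3 in 20 of the 20 genes with the lowest differences and in 551 of the 560 genes past 2-fold on that side.

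On the other side, Emcn, the gene of the endothelial surface protein endomucin, stood at 1.38 in fresh medium, 0 in myoblast medium and -4.28 in fibroblast medium, and was 19.4-fold higher in myoblast medium. Sparcl1, a matricellular protein gene, had values of 1.36, 0 and -3.97, and Dhrs7c, a dehydrogenase gene of striated muscle, 1.20, 0 and -3.36. In these 3 genes the fibroblast medium array was the low one and the fresh medium array the highest, with myoblast medium between them. Ddit3, the gene of the stress transcription factor CHOP, was different in this respect, with values of 0, 3.09 and -0.20. Trib3, a pseudokinase gene, stood at -0.95, 2.86 and 0, and the drug efflux pump gene Abcb1a at -0.39, 2.76 and 0. Here the myoblast medium array stood above both others. The keratin gene Krt19 was spread over all 3 arrays, at 0, 1.34 and -1.53. Among the 302 genes at least 2-fold higher in myoblast medium, the fresh medium array was the highest in 140 and the myoblast medium array in 162, and the fibroblast medium array was the lowest in 264.

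**Figure D2:**
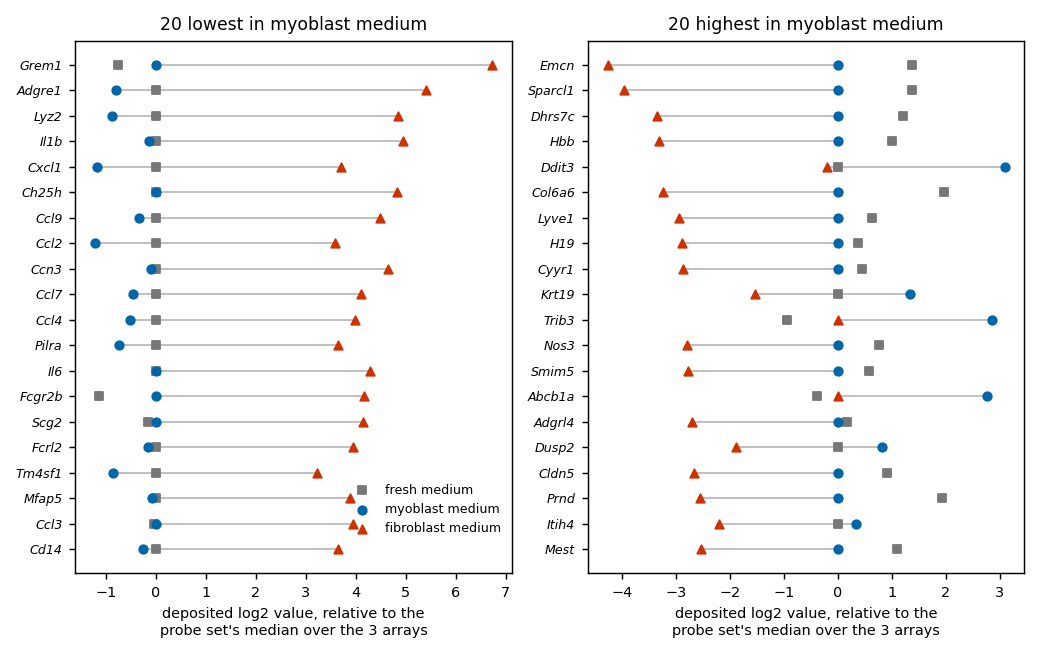
Deposited log2 values on the 3 arrays for the 20 genes with the lowest (left) and the 20 with the highest difference (right), each relative to the probe set's median over the arrays, with 1 array per medium and a grey line joining the media compared. The triangles of fibroblast medium lie at the right in all 20 genes of the left panel and at the left in 18 of 20 in the right panel.

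Genes of chemokines, the small secreted proteins that attract leukocytes, were lower in myoblast medium wherever they passed 2-fold, in both main subfamilies. Of 16 CC chemokine genes measured, 9 were lower and 0 higher by at least 2-fold, around a median of -1.10 against 0.00 for all genes. Ccl9 stood at 0 in fresh, -0.33 in myoblast and 4.48 in fibroblast medium, and Ccl2, which attracts monocytes, at 0, -1.21 and 3.58. Ccl7, another attractant of monocytes, differed by -4.58, Ccl4 by -4.49 and Ccl3 by -3.94. At the other end of the list, Ccl21 was at 0.27, Ccl22 at 0.052 and Ccl27 at 0.040. The remaining 15 chemokine genes, mostly of the CXC group, had a median of -1.21, and 8 of them passed 2-fold on the lower and 0 on the higher side. Cxcl1, a neutrophil attractant, stood at 0, -1.18 and 3.71, a 29.6-fold lower value in myoblast than in fibroblast medium. Its relatives Cxcl6 (-3.25) and Cxcl2 (-3.16) and the membrane-bound Cx3cl1 (-2.50) followed. Cxcl12, which is known for retaining stem cells in their niche, had 3 probe sets between -2.93 and -1.41 and a mean of -2.18, while the interferon-induced Cxcl10 and Cxcl11 were at 0.33 and 0.35, values that fall below 0 with the poly-A scaling. Among 16 chemokine receptor genes the median was -0.0085. The scavenging receptors Ackr4 (-1.87) and Ackr3 (-1.74) were lower, and Cxcr4, the receptor of Cxcl12, was higher at 1.06, with fresh medium above both at 1.52.

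NF-kB, a transcription factor activated by cytokines and microbial products, is known to bind variants of a G-rich and T/C-rich site in chemokine promoters. The letters GGNNTTTCC were looked for on both strands in the 250 bases before each gene start, in the promoter table of RefSeq assembly GRCr8. They occur in 5.19% of all 33469 promoters of the table and in 5.62% of the 11734 measured genes that have one. Of the CXC, C and CX3C chemokine genes with a promoter, 6 of 13 held them, and of the CC chemokine genes 2 of 11. They are not particular to chemokines, since 4 of 18 aminoacyl-tRNA synthetases and 2 of 20 genes of an ATF4 target list, described further on, held them too. Among all genes at least 2-fold lower in myoblast medium the share was 7.62%, and among those at least 2-fold higher 5.18%. A related pattern, GGGNNTTCC, lay the other way, in 6.19% of the lower and 8.76% of the higher genes against 6.18% of measured genes, and 2 of 13 CXC, C and CX3C genes and 3 of 11 CC genes held it. A match describes the letters, and is not shown to be a site that is used. The following stretches show where the letters lie in 4 chemokine and cytokine genes that hold them, chosen after their values were seen, in the direction of the gene, with the match nearest the gene start in capitals.
Cxcl1: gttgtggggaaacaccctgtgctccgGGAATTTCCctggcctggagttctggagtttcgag
Cxcl6: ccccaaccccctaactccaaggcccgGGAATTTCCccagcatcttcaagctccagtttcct
Ccl9: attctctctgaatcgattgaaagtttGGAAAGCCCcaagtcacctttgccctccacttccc
Il6: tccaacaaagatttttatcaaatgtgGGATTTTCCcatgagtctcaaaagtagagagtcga
In Cxcl1 the capitals begin 83 bases before the gene start (chr14:17479370-17479430, minus strand), in Cxcl6 87 bases before it (chr14:17596470-17596530, minus strand), in Ccl9 106 bases (chr10:68868949-68869009, minus strand) and in Il6 67 bases (chr4:5894608-5894668, minus strand). The Ccl9 match lies on the opposite strand, so its capitals read as the reverse complement. Cxcl1 held 2 matches.

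Among cytokines known to induce chemokines, and their receptors, part of the genes were lower in myoblast medium. Of 21 interleukin-1 and TNF family genes, 8 were lower and 0 higher by at least 2-fold, around a median of -0.77. After Il1b came Il1a (-3.66), Il18 (-3.16), the decoy receptor gene Tnfrsf11b (-2.26) and Tnfrsf12a, the receptor of the cytokine TWEAK (-2.01). Highest was Il18bp, an inhibitor of interleukin-18, at 0.49. The interleukin-6 list was different in shape: Il6 itself stood at 0 in fresh, 0 in myoblast and 4.29 in fibroblast medium, while the next lowest of its 19 genes, Ctf1, was at -0.61 and the list median was -0.12, which turns above 0 with the hybridisation scaling. The receptor gene Lifr was highest at 0.43. Of 14 NF-kB subunits and inhibitors, 2 were past 2-fold on the lower side (median -0.65), the inhibitor genes Tnfaip3 (-1.78) and Nfkbia (-1.29), and the subunits Nfkb2 and Relb were at -0.96 and -0.93. Toll-like receptors and their adaptors had a median of -0.77, and 4 of 14 were past 2-fold on the lower side, among them the lipopolysaccharide co-receptor Cd14 (-3.91), Tlr2 (-2.88), Tlr7 (-2.14) and Tlr8 (-1.75), with the adaptor Myd88 at -0.92. Irak1 was highest, at 0.033.

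Genes of macrophages, the phagocytes that make many of these cytokines, were lower in the same comparison, and their part in the cytokine and chemokine differences was not tested. The C-type lectin and Fc receptor list had a median of -2.51, and 13 of 15 genes were past 2-fold on the lower side. The inhibitory receptor gene Pilra stood at 0, -0.73 and 3.64 in fresh, myoblast and fibroblast medium, and Fcgr2b at -1.13, 0 and 4.16. Clec4a3 (-3.62), the signalling chain gene Fcer1g (-3.05) and the lipid receptor gene Trem2 (-3.01) followed, against Clec10a at 0 and Sirpa at -0.25. Of 27 macrophage markers measured, 23 were at least 2-fold lower and 0 higher, and 25 lay below 0. The exceptions were the scavenger receptor gene Cd163 (0.084) and Pld4 (0.086). Levels of the markers in each culture cannot be given from centred values. Markers of T, B and mast cells had none of 18 past 2-fold, where 2.12% of all genes were higher and 3.94% lower. Of the 18, 6 had no value on any array. Their values ran from -0.11 to 0.32 around a median of 0.00. A list of this size with so few values gives little contrast with the macrophage markers.

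Effector genes of phagocytes were lower only in part. Of 17 genes of the phagocyte oxidase and lysosomal proteases, 6 were at least 2-fold lower (median -0.75), with Lyz2 joined by the oxidase subunit gene Cybb at -3.89 and the cathepsin genes Ctss at -3.33 and Ctsz at -2.16. Other lysosomal genes lay on the opposite side, with Lipa at 0.42, Ctsl at 0.41 and Ctsc at 0.16, values that fall below 0 with the poly-A scaling. Complement genes had a median of -0.53 and 6 of 17 past 2-fold on the lower side, including the receptor C5ar1 (-3.84), the central component C3 (-2.83) and C1qa (-2.16), against Clu at 0.37. In the antigen presentation list, 4 of 20 genes were at least 2-fold lower, led by RT1-DMa (-2.29) and the immunoproteasome subunits Psmb9 (-1.70) and Psmb8 (-1.24), around a median of -0.28. Interferon-response genes had a median of -0.031, which turns above 0 with the hybridisation scaling, and 1 of 28 passed 2-fold, the antiviral gene Rsad2 on the higher side at 1.27.

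Genes of lipid mediators, of acute phase and other inflammation-linked proteins and of adhesion molecules differed member by member. Ptgs2, which encodes cyclooxygenase-2, stood at -0.35 in fresh, 0 in myoblast and 3.67 in fibroblast medium. The secreted phospholipase gene Pla2g2a, at 0.55, -2.76 and 0, had its low value on the myoblast medium array instead of a high one on the fibroblast medium array. The prostaglandin receptor Ptger3 (-2.07) and the synthases Hpgds (-1.63) and Tbxas1 (-1.47) brought the list to 7 of 23 past 2-fold on the lower side, although its median was only -0.27. It changes sign with the hybridisation scaling. The acute phase list, which also holds other inflammation-linked genes, had 7 of 15 at least 2-fold lower (median -0.85). It was led by Ch25h, a cholesterol hydroxylase gene with values of 0, 0 and 4.82. The iron hormone gene Hamp (-2.67) and Spp1, the gene of osteopontin (-2.15), followed. Itih4 went the other way at 2.54. In the adhesion list, 6 of 15 genes were at least 2-fold lower: Vcam1 (-3.19), the leukocyte integrins Itgal (-2.77), Itgb2 (-2.46) and Itgam (-1.61), Icam1 (-2.36) and Cd44 (-1.15). Pecam1, an endothelial adhesion gene, was higher at 1.60. Among genes of nitric oxide and arginine metabolism, arginase Arg1 (-3.88) and Ass1 (-2.14) were lower, and the endothelial synthase Nos3 (2.79) and the arginine transporters Slc7a3 (1.76) and Slc7a1 (1.06) were higher.

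**Figure D3:**
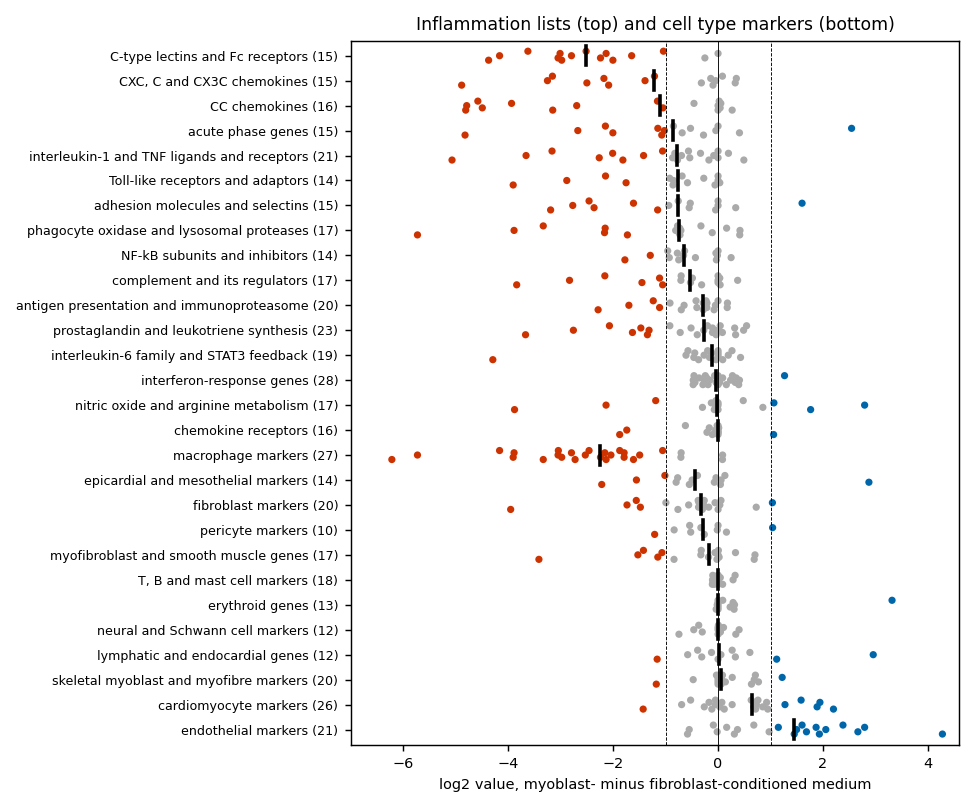
Log2 differences (myoblast- minus fibroblast-conditioned medium, horizontal axis) of the members of the inflammation lists (top) and the cell type marker lists (bottom), with the number measured in brackets. Each point is a gene, red at least 2-fold lower and blue at least 2-fold higher, black bars are list medians and dashed lines mark 2-fold; C-type lectins and macrophage markers lie farthest left and endothelial markers farthest right.

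Growth factor genes with the widest differences were antagonists and matricellular regulators. Of the 6 CCN family genes, secreted proteins that modulate integrin and growth factor signalling, 5 were at least 2-fold lower in myoblast medium (median -2.09). Ccn3 stood at 0, -0.10 and 4.64 in fresh, myoblast and fibroblast medium, and Ccn5 at -0.37, 0 and 3.79. Ccn2, which encodes connective tissue growth factor, differed by -2.51, Ccn4 by -1.66 and Ccn1 by -1.54, while Ccn6 had no value on any array. In the TGF-beta and activin pathway, 6 of 23 genes passed 2-fold, all on the lower side. They included the activin antagonist Fst (-3.69), the activin subunits Inhba (-2.45) and Inhbb (-2.21) and the ligands Tgfb2 (-2.11) and Tgfb3 (-2.05). The list median of -0.25 turns above 0 with the hybridisation scaling, and the signal transducer Smad4 was highest at 0.35. Among 25 BMP genes the antagonists Grem1 and Bmper (-2.04) and the ligand Bmp2 (-2.05) were lower, and the ligands Gdf10 (1.75) and Bmp5 (1.13) were higher.

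Ligands and receptors of EGFR and c-Met, the receptors that the study concerns, ran from -1.04 to 0.94. Their median of -0.080 turns above 0 with the hybridisation scaling, and 2 of the 20 genes had no value on any array. Past 2-fold was 1 of 20, on the lower side, near the 3.94% of all genes on that side. The gene past 2-fold was Hbegf, an EGFR ligand, with values of -0.23 in fresh, 0 in myoblast and 1.04 in fibroblast medium. The ligands Areg (-0.83), Tgfa (-0.82) and Ereg (-0.81) lay on the same side, and Egf (0.94) and Nrg4 (0.73) on the other. The receptor genes Egfr and Erbb3 were at -0.088 and -0.12, and Erbb2 and Erbb4 at 0.33 and 0.23. Met was at -0.072, and its ligand gene Hgf had no value on any array. Among genes that act on hepatocyte growth factor, the protease inhibitors Spint2 and Spint1 were at -0.82 and -0.34, the protease St14 at -0.58 and Hgfac at 0.059. Feedback and immediate-early genes downstream of MAP kinases had 7 of 28 past 2-fold on the lower side (median -0.38), among them the phosphatase Dusp1 (-1.96), Maff (-1.61), the cyclin gene Ccnd1 (-1.57), Ier3 (-1.38) and Jun (-1.33), against Myc at 0.60.

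Vascular growth factors were split. Angpt2, which destabilises vessels, was higher in myoblast medium by 2.28, as were the vascular peptide gene Apln (1.93) and the endothelial receptors Tie1 (1.87), Tek (1.45) and Kdr (1.15). Angpt1, the opposing ligand of Tek, was lower at -1.76, and so were the co-receptor Nrp2 (-1.50) and Vegfc (-1.25). The list of 22 genes had a median of 0.0096, against 0.00 for all genes. In the IGF system, 1 of 18 genes passed 2-fold, the binding protein gene Igfbp2 at -3.23. The PDGF and FGF list likewise had 1 of 22, the receptor-like gene Pdgfrl at -2.01. Both counts are near the 3.94% of all genes that were lower by 2-fold or more. For Igf2, a probe set at 1.80 was averaged with others from 0 to 0.15. Of 27 Wnt genes, the inhibitors Frzb (-2.34) and Nkd2 (-2.18) and the receptor Fzd2 (-1.05) were lower, while the ligand Wnt4 (1.16) and the inhibitor Wif1 (1.13) were higher. Among 21 Notch genes the target Hey1 was the single one past 2-fold, at 1.04, with the ligand Jag1 just short of the opposite limit at -0.998. Guidance genes had 4 of 24 at least 2-fold lower, among them the semaphorins Sema3c (-1.41) and Sema4a (-1.40) and the neurotrophin Bdnf (-1.08).

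Matrix genes differed by class rather than as a whole. The 24 fibrillar and related collagens had a median of -0.029, which turns above 0 with the hybridisation scaling. Col8a1 stood at -0.80 in fresh, 0 in myoblast and 3.12 in fibroblast medium, and Col6a6 at 1.97, 0 and -3.26. They were 8.68-fold lower and 9.55-fold higher in myoblast medium, with the fibroblast medium array at the top in the former and at the bottom in the latter. Col11a1 (-2.04), Col24a1 (-1.62) and Col8a2 (-1.10) were also lower. Enzymes that hydroxylate and crosslink collagen had 4 of 15 genes past 2-fold on the lower side (median -0.39): P4ha3 (-2.23), Loxl1 (-2.06), Lox (-2.05) and Plod2 (-1.28). The transglutaminase gene Tgm2 was higher at 1.14.

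Elastic fibre and matricellular genes past 2-fold were lower more often than higher, at 10 and 3 of 24 (median -0.67). The microfibril gene Mfap5 (-3.95), the latent TGF-beta binding protein Ltbp2 (-3.40), Fbln5 (-2.39), tenascin Tnc (-1.90) and Fbln2 (-1.56) were lower, and Sparcl1, the fibrillin Fbn2 (1.69) and Fbln1 (1.04) higher. Proteoglycans and hyaluronan genes had 9 of 25 at least 2-fold lower and a median of -0.80, with the small leucine-rich Fmod (-2.14) and the syndecans Sdc4 (-1.86) and Sdc2 (-1.37) lowest and decorin Dcn highest at 0.73. Matrix-degrading metalloproteases and their inhibitors were lower in 7 of 26 genes (median -0.62). Mmp12, a protease known from macrophages, was at -3.52, Mmp3 at -2.09, Mmp19 at -1.48 and the inhibitor Timp1 at -1.07, against Mmp11 at 0.76. In the plasminogen system, 7 of 20 were at least 2-fold lower, including the inhibitors Tfpi2 (-2.74) and Serpinb2 (-2.29), the activator Plau (-1.23) and tissue factor F3 (-1.14). Integrin genes had 5 of 16 lower and 0 higher (median -0.58), led by Itga11 (-1.96), Itga8 (-1.53) and Itgb5 (-1.44). Basement membrane genes had Lama2 (1.33) and Nid2 (1.13) higher and Col4a4 (-1.29) lower.

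**Figure D4:**
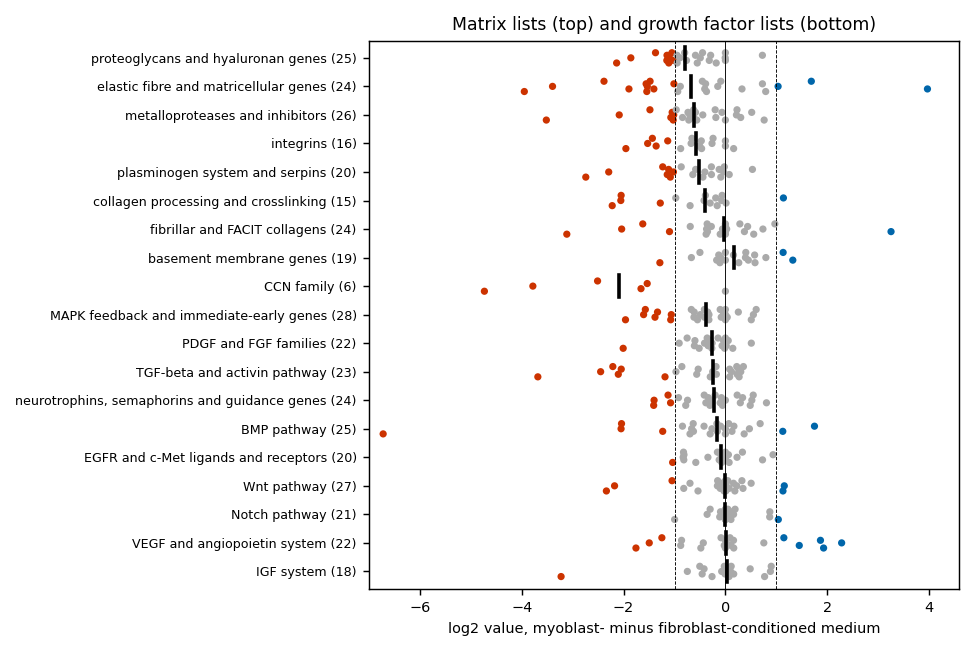
Log2 differences (myoblast- minus fibroblast-conditioned medium, horizontal axis) of the members of the matrix lists (top) and the growth factor lists (bottom), drawn as points with the list median as a black bar and the number measured in brackets. The CCN family has the lowest median, -2.09, and Grem1 at -6.73 in the BMP list is the point farthest left.

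In the amino acid response, the genes past 2-fold were mostly higher in myoblast medium. ATF4, a transcription factor made when translation is restrained by amino acid shortage or misfolded protein, is known to induce CHOP, amino acid transporters, biosynthetic enzymes and tRNA synthetases. Of 23 ATF4 targets and regulators, 8 were higher and 1 lower by at least 2-fold, around a median of 0.60. Ddit3 and Trib3 led the list. Chac1, which encodes a glutathione-degrading enzyme, stood at -0.36, 1.98 and 0 in fresh, myoblast and fibroblast medium, the cystine transporter gene Slc7a11 at -0.93, 2.07 and 0, and the phosphatase regulator Ppp1r15a at -0.57, 1.47 and 0. The myoblast medium array was the highest in these 3 genes. Cebpd was the gene of the list past 2-fold on the lower side, at -1.22, and Cebpb was at -0.74.

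Enzymes that make or load amino acids differed by smaller amounts, most of them on the same side. Of 20 genes of amino acid synthesis and one-carbon metabolism, 7 were at least 2-fold higher and 0 lower (median 0.80), led by asparagine synthetase Asns (1.35), the transaminase Got1 (1.35), Mthfd1l (1.32) and Mthfd2 (1.31) of the mitochondrial folate pathway, and the serine pathway gene Psat1 (1.22). The thymidylate synthase gene Tyms was lowest at -0.46. The 20 aminoacyl-tRNA synthetases had a median of 0.79, with Yars1 (1.20), Gars1 (1.18), Nars1 (1.13) and Wars1 (1.07) past 2-fold and Hars1 and Qars1 at 0.0041 and -0.012. Amino acid transporters divided, with Slc3a2, the shared heavy chain of several transporters, higher at 1.38 and Slc6a6 and Slc43a2 lower at -1.77 and -1.76. Chaperones of the endoplasmic reticulum were at least 2-fold higher in 8 of 25 genes and lower in 0 (median 0.59). Creld2 stood at 0, 2.44 and -0.046, and Herpud1, a gene of protein degradation at that organelle, at 0, 2.03 and -0.097. Manf (1.64), Ero1b (1.42) and Dnajb9 (1.42) followed, against Edem1 at -0.34. With the poly-A scaling the medians of the ATF4 and chaperone lists shrank to 0.025 and 0.016.

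The letters TGATGNAA, a pattern of the composite site that ATF4 and C/EBP proteins are known to bind, were looked for in the same promoter windows on both strands. They occur in 3.4% of all promoters of the table and in 2.2% of measured genes with one. Of the ATF4 list 5 of 20 genes held them, of the tRNA synthetases 5 of 18 and of the amino acid synthesis list 1 of 16. Among all genes at least 2-fold higher in myoblast medium the share was 5.98%, and among those at least 2-fold lower 2.38%. In all, 8 letter patterns were searched, some overlapping, and those not named here are not described. The stretches below show the matches, in capitals, of 4 genes higher in myoblast medium that hold 1 each, in the direction of the gene.
Trib3: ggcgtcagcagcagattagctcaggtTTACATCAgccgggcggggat
Chac1: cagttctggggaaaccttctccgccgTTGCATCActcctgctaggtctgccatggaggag
Herpud1: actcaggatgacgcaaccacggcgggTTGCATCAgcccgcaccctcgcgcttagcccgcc
Got1: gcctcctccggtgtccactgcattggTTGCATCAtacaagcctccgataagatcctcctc
All 4 matches lie on the opposite strand and so read as the reverse complement. In Trib3 the capitals begin 21 bases before the gene start (chr3:161275534-161275580, minus strand), in Chac1 167 bases (chr3:126795938-126795997, plus strand), in Herpud1 184 bases (chr19:10614858-10614917, minus strand) and in Got1 167 bases (chr1:252330005-252330064, minus strand). Whether any protein binds there was not measured.

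Metabolic genes lay mostly on the higher side, by small amounts. Of 35 genes of fatty acid oxidation, the main fuel pathway of the mature heart, 9 were at least 2-fold higher and 0 lower (median 0.60, or 0.028 with the poly-A scaling). Acot1 (2.25), the lipid droplet gene Plin5 (2.03), the carnitine transferase Cpt1b (1.39), Pdk4 (1.35), which restrains glucose oxidation, and Acsl1 (1.26) led, and Fabp4 (-0.48) was lowest. The respiratory chain had 30 of 35 genes above 0 but none past 2-fold, with a median of 0.38 that falls below 0 with the poly-A scaling, as does the 0.54 of the TCA cycle and branched-chain list. The 31 glycolysis genes and HIF targets had 6 at least 2-fold higher and 2 lower, around a median of 0.33 that falls below 0 with the poly-A scaling. The arrestin-family genes Txnip and Arrdc4, which glucose is known to induce, were the lowest of them, both at -2.64. Txnip stood at 1.03, -2.64 and 0 in fresh, myoblast and fibroblast medium and Arrdc4 at 1.001, -2.64 and 0, with the myoblast medium array as the low one. The glucose transporters Slc2a4 (1.52) and Slc2a1 (1.37), the mitophagy gene Bnip3 (1.63), Ankrd37 (1.46) and Aldoc (1.33) were higher. Cholesterol synthesis genes had no member past 2-fold and a median of -0.31, with Msmo1 lowest at -0.96.

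Redox genes differed by list, and the median of each list changes side with the control scalings. Antioxidant enzymes had a median of -0.11, which turns above 0 with the hybridisation scaling, with the superoxide dismutases Sod3 (-2.12) and Sod2 (-1.58) and the glutathione peroxidases Gpx3 (-1.40) and Gpx8 (-1.35) lower and the metallothionein Mt1 higher at 1.24. Of 23 Nrf2 targets, 3 were at least 2-fold higher and 1 lower, against 2.12% and 3.94% of all genes. The higher ones were the cystine transporter gene Slc7a11 (2.07), Nqo1 (1.30) and the efflux pump gene Abcc4 (1.04), and the lower one Ephx1 (-1.28). The list median of 0.28 falls below 0 with the poly-A scaling. Of 23 glutathione transferases and efflux pumps, 3 were at least 2-fold higher and 0 lower, among them the transferase Gstt3 at 1.99. Their median of 0.25 falls below 0 with the poly-A scaling. No heat shock gene of 18 passed 2-fold.

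Endothelial markers were higher in myoblast medium, 12 of 21 at least 2-fold and 0 lower, and theirs was the single list median above 1 (1.45). After Emcn came Nos3 at 0.77 in fresh, 0 in myoblast and -2.79 in fibroblast medium, and the tight junction gene Cldn5 at 0.91, 0 and -2.67. The fibroblast medium array was the low one in both. The transcription factor Sox18 (2.38) and Ecscr (2.05) were also higher, against the connexin Gja5 (-0.58) and the co-receptor Eng (-0.55). The 12 lymphatic and endocardial genes were mixed, with 2 at least 2-fold higher and 1 lower, 6 above 0 and 5 below. They ran down to -1.16, and their median of 0.027 falls below 0 with the poly-A scaling. Lyve1, a hyaluronan receptor also known from some macrophages, was highest at 2.96 with its 2 probe sets at 2.56 and 3.36. Pdpn was at 1.12, and the lymphatic regulator Prox1 was at 0.33, which falls below 0 with the poly-A scaling. The part of the endothelial genes in the vascular growth factor differences was not tested.

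Markers of other stromal cells lay on the lower side by small amounts. The medians of the pericyte and the epicardial and mesothelial lists were -0.29 and -0.44, and stayed below 0 under each control scaling. So did that of the fibroblast markers at -0.33, with Thy1 (-1.74) and Mfap4 (-1.48) among 4 of 20 at least 2-fold lower and Dcn and Fbln1 on the opposite side. Smooth muscle and myofibroblast genes had a median of -0.18, which turns above 0 with the hybridisation scaling and was -0.89 with the probe set of widest range. Of 17 genes, 5 were at least 2-fold lower, led by the smooth muscle actin gene Actg2 (-3.41), Itga8, Tagln (-1.42) and Lmod1 (-1.15), with Myl9 at 0.70 at the other end. In the epicardial and mesothelial list the keratin genes parted, with Krt18 at -2.22 and Krt19 at 2.88. Among pericyte genes Rgs5 was at -1.21 and Abcc9 at 1.04. Of 20 skeletal muscle markers 1 passed 2-fold on each side, Myl1 (1.22) and Myh2 (-1.18), around a median of 0.049 that falls below 0 with the poly-A scaling. The haemoglobin gene Hbb stood at 1.001 in fresh, 0 in myoblast and -3.32 in fibroblast medium, while no other of the 13 genes of the erythroid list passed 2-fold. The alpha-globin gene Hba-a3, which is not in that list and was named after its value was seen, was at 1.05.

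Cardiac genes differed in both directions. Of 26 cardiomyocyte markers, 5 were at least 2-fold higher and 1 lower (median 0.65, or 0.080 with the poly-A scaling). The mitochondrial creatine kinase gene Ckmt2 stood at 0, 0.46 and -1.74 in fresh, myoblast and fibroblast medium, and the myosin gene Myh6 at 0.16, 0 and -1.94. The atrial light chains Myl7 (1.89) and Myl4 (1.58) and the calcium-binding Hrc (1.28) were also higher. Ankrd1, a stretch-responsive gene, was lower at -1.43, and myoglobin Mb was at -0.69. The sarcomere list held 4 genes past 2-fold on each side, with skeletal actin Acta1 highest at 2.46 and the M-band gene Myom2 (-2.91), Lmod2 (-1.59) and Tcap (-1.39) lowest. Its median of 0.20 falls below 0 with the poly-A scaling.

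Hypertrophy and stretch markers, known from the overloaded heart, had 6 of 17 at least 2-fold lower and 1 higher. Nppb, which encodes B-type natriuretic peptide, stood at -2.02, 0 and 1.68 in fresh, myoblast and fibroblast medium, the lowest value being that of fresh medium. The calcineurin regulator Rcan1 was at -2.35, while Acta1, with values of 0, 1.73 and -0.72, was the exception. Among ion channels, Kcnd2 and its partner Kcnip2, which carry a transient outward potassium current, were higher at 2.25 and 1.34, and the sodium channel subunit Scn3b and potassium channel subunit Kcne1 lower at -2.76 and -1.01. Calcium handling genes had 1 of 26 past 2-fold, Hrc, with the calcium pump Atp2a2 at 0.95. No cardiac transcription factor of 24 passed it. Of the endothelin, angiotensin and adrenergic genes the angiotensin receptor Agtr1a was lower at -1.64 and the adenosine receptor Adora2b higher at 1.15.

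Genes of proliferation held none past 2-fold. That covers 25 G2 and mitosis genes, from -0.64 to 0.65, and 24 DNA replication genes, from -0.49 to 0.47. With 2.12% of all genes higher and 3.94% lower, lists of this size would hold few such genes. The 20 ribosomal protein genes had a median of 0.00. Regulators of the cycle differed more: 7 of 25 cyclins, inhibitors and p53 targets were at least 2-fold lower (median -0.38), among them the inhibitors Cdkn2a (-1.70) and Cdkn1a (-1.49) and the cyclin Ccnd1, and the imprinted inhibitor Cdkn1c was higher at 2.07. It is imprinted, and of 17 imprinted genes of fetal growth 3 were at least 2-fold higher, with a list median of 0.27 that falls below 0 with the poly-A scaling. H19 stood at 0.37 in fresh, 0 in myoblast and -2.89 in fibroblast medium and Mest at 1.10, 0 and -2.54, whereas Meg3 was at -0.993. In the list of Bcl-2 family and caspase genes, Bcl2a1 (-2.22) and Casp1 (-1.31) were lower and Bnip3 and Casp4 (1.58) higher. Of 13 genes often used as references, the transferrin receptor Tfrc was the single one past 2-fold, at 1.07. Gapdh was at 0.26.

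**Figure D5:**
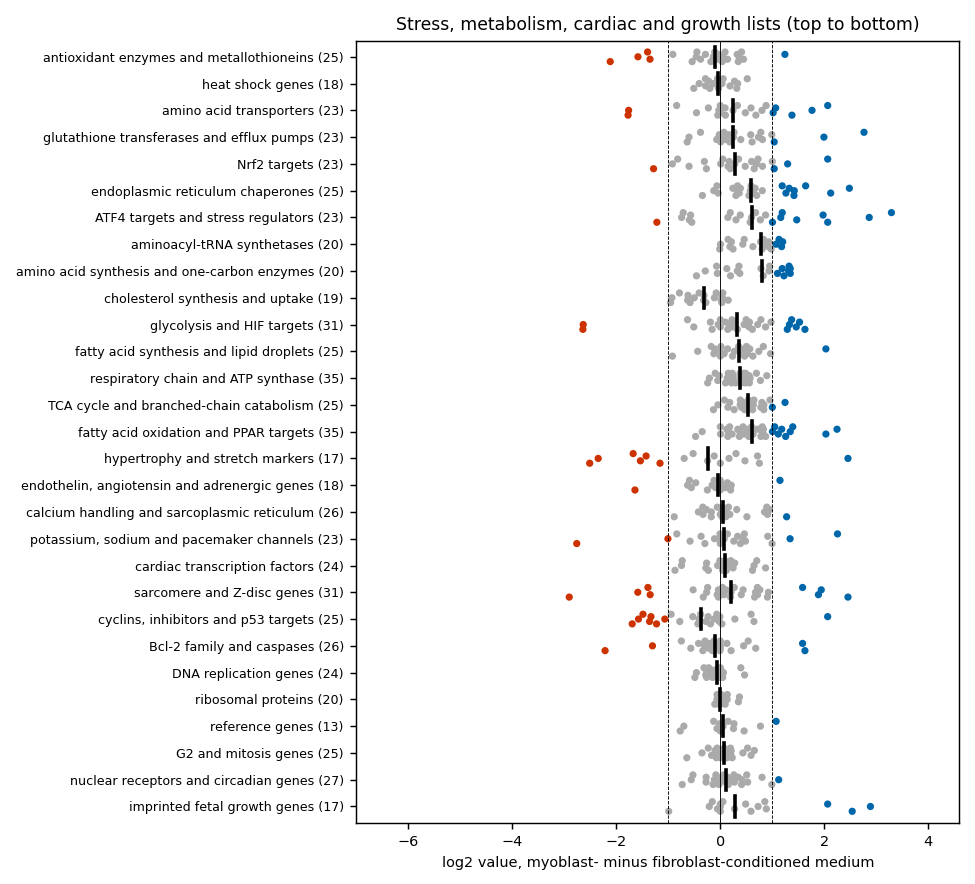
Log2 differences (myoblast- minus fibroblast-conditioned medium, horizontal axis) of the members of stress, metabolism, cardiac and growth lists from top to bottom, drawn as points with the list median as a black bar, dashed lines at 2-fold and the number measured in brackets. The amino acid synthesis, tRNA synthetase, ATF4, fatty acid oxidation and chaperone lists have medians between 0.59 and 0.80, and the ribosomal, DNA replication and mitosis lists lie around 0.

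Genes read by several probe sets give an internal check, although probe sets share the RNA sample and are not replicates. Of the 187 genes past 2-fold with several probe sets, 85 had every probe set past 2-fold, and 3 had a probe set of opposite sign. Some means given above join probe sets of unlike size. Examples are Ero1b at 0.16 and 2.69, Kdr at 0.12 and 2.18, and Bmp5 at 0.39 and 1.86. Kcnip2 had probe sets at 0, 1.17 and 2.86, and Bdnf at 0 and -2.16. Trib3 had 3 probe sets between 2.78 and 2.94, and the phosphatase gene Mtmr4 3 between 1.21 and 1.91. On the lower side, Rassf4 had 3 between -3.26 and -1.86, Ccnd1 3 between -1.87 and -1.32 and the syndecan gene Sdc2 3 between -1.46 and -1.33. Creb5, a transcription factor gene with 5 probe sets, ran from -2.62 to -0.94, and the splicing factor gene Rbm39, also with 5, from 0.78 to 1.53. The genes from Trib3 to Rbm39 were picked as the most uniform among those with 3 or more probe sets. That their probe sets kept 1 sign each follows from this choice and is not part of the check.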

How the data were processed

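Total RNA of 3 cultures was extracted with an RNeasy kit, labelled with biotin by a 3' IVT kit and hybridised to 1 array each, per the labels' protocols. The submitters' processing notes name RMA, a background correction, quantile normalisation and probe summary; its version and settings are not stated in those notes or the labels. The values the authors deposited are log2 values centred on each probe set's median, as the values show, since no probe set has a value on all 3 arrays. The base is taken from RMA. Blank cells were read as 0. Of 31099 probe sets, 17117 held 2 values, 8002 held 1 and 5980 were blank. Centring alone leaves 1 blank among 3 unequal values. Why the probe sets with 1 or no value held more blanks is not known here. Il6 and Ch25h, at 0 in both fresh and myoblast medium, rest on such filled blanks. Centring removes signal over background, so no dim gene could be left out, and 1627 genes were blank on all arrays.

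The platform annotation gave 20832 probe sets 1 symbol, 436 several and 9831 none; Entrez IDs then gave current symbols from the RefSeq table of GRCr8 (20764 matched). Probe sets of the same single symbol were averaged per gene (4526 genes had more than 1). The genes and 76 gene lists were chosen with earlier results of these data known; 202 of 1785 list entries were not measured. Genes named are the 20 widest differences on each side, leaving out placeholder symbols, up to 5 list members in the direction of the list's median and up to 3 the other way, all EGFR and c-Met list members, and the 10 most uniform genes on each side with 3 or more probe sets; others were chosen after their values were seen. Counting was tested on simulated data in which each probe set had exactly 1 blank, so the filling of further blanks was not tested. Alternatives were other probe set rules, thresholds of 1.5-fold and 3-fold, and scaling on the added controls. Python 3.11.15, NumPy 2.4.6, pandas 2.3.3 and Matplotlib 3.10.9 were used.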

Additional observations from a re-analysis of the deposited data

How the results depend on the processing

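At 1.5-fold, 946 genes were higher and 1186 lower in myoblast medium, and at 3-fold 84 and 255. Set to the median of all added controls, 194 genes passed 2-fold on the higher side and 813 on the lower. Set to the hybridisation controls alone the counts were 643 and 368, and to the poly-A controls alone 86 and 1655; these last scalings were chosen after seeing the data. Other probe set rules gave from 300 to 416 genes higher and from 557 to 728 lower, the widest with the probe set of widest range. The rules for naming genes picked 600, not all of them printed, and 272 of these were past 2-fold. Genes chosen outside those rules were not followed here. Of the 272, 51 fell under 2-fold with the poly-A scaling, 31 with the hybridisation scaling and 25 with all controls. With the median of the probe sets 2 did. Without probe sets that may cross-hybridise 271 of them remained, and 1 fell under it. With values on 2 of the 3 arrays required, only 267 remained and the others could not be checked. None of those 267 fell under it, nor did any of these genes under the remaining probe set rules. Leaving out probe sets blank in both media removes only differences of 0, so it cannot bring a gene under 2-fold. The rule of the widest range favours the probe set that varies most, so it is a weak check. The control scalings shift every gene by at most 0.58, so no gene past 2-fold could change sign under them, while 44 list medians changed side. None of these genes that remained changed sign under the probe set rules either. Restricted to probe sets with 2 values, the CC chemokine median was -2.69 in place of -1.10, the CXC median -1.74 in place of -1.21, the adhesion median -1.54 in place of -0.76 and the macrophage median -2.72 in place of -2.24. With the probe set of widest range, the smooth muscle and myofibroblast median was -0.89 in place of -0.18, and the macrophage median, at -2.74, lay below the -2.51 of the C-type lectin list. No replicate could be left out and no spread between cultures is known, since each medium had 1 array. No paired analysis was possible because the labels give no replicate numbers.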

Other observations

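Haemoglobin genes gave the widest difference of any probe set on the higher side. Probe sets that the annotation pairs with more than 1 gene were left out of all counts above, and of these 10 were higher and 12 lower in myoblast medium by 2-fold or more. Among the 10 were 3 probe sets shared by the alpha-globin genes Hba-a1 and Hba-a2, at 7.82, 7.40 and 2.57, and 2 shared by beta-globin genes, at 5.56 and 3.40. The alpha-globin probe set at 7.82 stood at 0.95 in fresh, 0 in myoblast and -7.82 in fibroblast medium, so the fibroblast medium array was the low one, as it was for Hbb. Of the erythroid genes that do not encode globins, Alas2, which starts haem synthesis, was at 0.29 and the erythroid transcription factor Gata1 at 0.31, values that fall below 0 with the poly-A scaling. A probe set shared by the cardiac myosin genes Myh6 and Myh7 was at 2.70, beside 1.94 for Myh6 and 0.72 for Myh7 from their own probe sets. Which of the genes sharing a probe set carried its difference cannot be told apart.

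The drug efflux pump genes disagreed by probe set. The 2 probe sets assigned to Abcb1a alone were at 2.69 and 2.84, whereas 1 shared by Abcb1a and Abcb1b was at -1.98.

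Beyond the lists, 200 of the genes at least 2-fold higher and 345 of those at least 2-fold lower in myoblast medium belonged to none of them. Of the genes named next, Coro1a, Enpp2, Saa3, Cdo1, Angptl8, Pgam2 and Slc25a33 were chosen after their values were seen. On the lower side were Scg2, a secretory granule protein gene, at -4.15, Tm4sf1 at -4.07 over 2 probe sets, the actin-binding leukocyte gene Coro1a at -3.88, the lysophosphatidic acid enzyme gene Enpp2 at -3.61 and the serum amyloid gene Saa3 at -3.56. The cysteine dioxygenase gene Cdo1 stood at 0 in fresh, -1.16 in myoblast and 2.37 in fibroblast medium, apart on all 3 arrays. On the higher side were Cyyr1 at 2.88, Adgrl4, an adhesion receptor gene of endothelium, at 2.70, the phosphatase Dusp2 at 2.69, Prnd at 2.55, the lipid-regulating secreted protein gene Angptl8 at 2.45 and the muscle phosphoglycerate mutase Pgam2 at 2.04. Angptl8, at -0.18, 2.45 and 0 in fresh, myoblast and fibroblast medium, and the mitochondrial carrier Slc25a33, at -0.37, 1.99 and 0, were high on the myoblast medium array alone, with the fresh and fibroblast medium arrays close to each other.

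Some related genes lay on opposite sides. The pairs given here are examples, since related pairs were not counted. Other families did not part in this way, and of 6 CCN genes 5 were at least 2-fold lower and 0 higher. Skeletal actin Acta1 (2.46) was higher and the smooth muscle actin Actg2 (-3.41) lower, Casp4 (1.58) higher and Casp1 (-1.31) lower, and Angpt2 (2.28) higher and Angpt1 (-1.76) lower. Each gene rests on 1 array per medium, and the 10216 probe sets without a single symbol, these shared ones included, held 168 that were higher and 217 that were lower by 2-fold or more.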
